A study of Mus musculus with 10 samples.

Results

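The 39 genes described here act in the germline: they build the chromosome structures of meiosis, recombine DNA, make or use piRNAs, or regulate germ cell identity. They were chosen by name, with earlier results of these data known. Each of the 39 was found among the 35976 genes of a table of read counts from mouse morulae. Morulae are the preimplantation embryos that precede the blastocyst. RNA was sequenced in 10 libraries, all from BDF1 x PWK morulae, with the Jarid2 knockout compared with wild-type or control embryos. Jarid2 encodes a cofactor of the Polycomb repressive complex PRC2, which places the repressive histone mark H3K27me3. One set held single female embryos, 3 of the genotype Jarid2 knockout (replicates 1, 3 and 4) and 3 wild-type (replicates 1 to 3). The other set held pools of about 20 embryos each, 2 Jarid2 knockout and 2 control. The sources used here do not give the sex of the pooled embryos, the deleted exons, whether the knockout was maternal, zygotic or both, or whether the pools came from separate litters. For the pools, p-values thus rest on a spread that may be technical. A knockout single embryo of replicate number 2 was not analysed here.

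In meiosis, sister chromatids are held by cohesin rings with meiosis-specific subunits, homologous chromosomes are joined along their length by the synaptonemal complex, and programmed DNA breaks are repaired by recombination. In germ cells, Piwi proteins loaded with piRNAs silence transposons, helped by Tudor-domain proteins and helicases gathered in a cytoplasmic body called nuage. Many of these genes have CpG-rich promoters that are silenced in somatic lineages by DNA methylation, by PRC1.6, a Polycomb complex whose DNA-binding subunits include MGA-MAX and E2F6, or by both.

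The promoters of the 6 genes that rose in knockout single embryos are shown because these are the genes the results turn on. Each runs from 250 bases before to 50 bases after the annotated start, 5′ to 3′ on the gene's own strand, from RefSeq on GRCm38.p6. Capitals mark an E-box, CACGTG, the motif that MGA-MAX binds and the same on both strands, or an E2F motif, TTCCCGC, searched on both strands and so also written GCGGGAA. The windows are chr3:102936051-102936350 on the minus strand for Sycp1, chr10:88459337-88459636 on the plus strand for Sycp3 and chr1:166238695-166238994 on the minus strand for Mael. The others are chr5:135349995-135350294 on the minus strand for Fkbp6 (the first of 2 annotated starts), chr3:55181794-55182093 on the plus strand for Sohlh2 and chrX:73097046-73097345 on the minus strand for Xlr3a.
Sycp1: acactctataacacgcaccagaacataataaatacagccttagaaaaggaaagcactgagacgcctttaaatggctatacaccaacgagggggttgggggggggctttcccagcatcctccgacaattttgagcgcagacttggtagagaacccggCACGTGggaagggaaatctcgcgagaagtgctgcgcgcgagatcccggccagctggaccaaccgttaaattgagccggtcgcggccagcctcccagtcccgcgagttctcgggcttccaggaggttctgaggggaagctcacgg
Sycp3: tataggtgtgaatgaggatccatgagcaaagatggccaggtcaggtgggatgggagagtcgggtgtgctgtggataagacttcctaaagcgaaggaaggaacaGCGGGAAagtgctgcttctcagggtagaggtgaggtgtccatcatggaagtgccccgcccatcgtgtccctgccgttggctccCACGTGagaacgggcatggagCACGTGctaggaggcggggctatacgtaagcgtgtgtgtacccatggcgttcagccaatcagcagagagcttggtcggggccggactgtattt
Mael: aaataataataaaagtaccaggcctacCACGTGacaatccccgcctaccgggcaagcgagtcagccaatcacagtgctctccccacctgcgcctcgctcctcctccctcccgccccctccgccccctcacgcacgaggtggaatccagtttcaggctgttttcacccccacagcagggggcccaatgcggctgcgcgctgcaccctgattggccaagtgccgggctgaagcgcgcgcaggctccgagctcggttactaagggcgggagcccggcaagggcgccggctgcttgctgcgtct
Fkbp6: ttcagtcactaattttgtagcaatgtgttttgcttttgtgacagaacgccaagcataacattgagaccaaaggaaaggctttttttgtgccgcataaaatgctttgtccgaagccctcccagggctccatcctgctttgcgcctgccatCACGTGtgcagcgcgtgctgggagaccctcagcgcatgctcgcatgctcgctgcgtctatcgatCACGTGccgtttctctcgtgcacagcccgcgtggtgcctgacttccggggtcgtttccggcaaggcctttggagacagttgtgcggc
Sohlh2: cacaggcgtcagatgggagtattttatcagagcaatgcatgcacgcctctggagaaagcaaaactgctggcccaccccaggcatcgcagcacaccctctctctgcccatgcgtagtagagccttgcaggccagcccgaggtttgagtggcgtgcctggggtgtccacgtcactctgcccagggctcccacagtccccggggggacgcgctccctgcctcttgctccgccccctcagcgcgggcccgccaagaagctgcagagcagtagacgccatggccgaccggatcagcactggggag
Xlr3a: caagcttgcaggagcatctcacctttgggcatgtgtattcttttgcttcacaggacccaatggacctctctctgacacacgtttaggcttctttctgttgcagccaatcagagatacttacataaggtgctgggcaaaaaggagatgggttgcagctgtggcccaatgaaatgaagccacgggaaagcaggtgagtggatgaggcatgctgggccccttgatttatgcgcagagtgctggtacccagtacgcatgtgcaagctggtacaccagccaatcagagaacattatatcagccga

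Sycp1 held 1 E-box, 94 bases before its start, and Sycp3 held E-boxes at 64 and 43 bases and an E2F motif at 147 bases before its start. Mael held 1 E-box at 223 bases, and Fkbp6 held E-boxes at 101 and 37 bases before the start shown. The Sohlh2 and Xlr3a windows held neither set of letters. Xlr3a was also the CpG-poor one among the 6, with 5 CpG and an observed-to-expected CpG ratio of 0.26, against 0.54 for Sohlh2 and 0.67 to 0.93 for the other 4 windows.

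RefSeq promoters were matched for 34 of the 39 genes, in 43 windows. Spo11, Tex11, Piwil2, Tdrd6 and Rnf17 had no match. The E-box was in 19 of the 43 windows (44.2%), against 7.15% of all 32851 promoter windows of the same length. By gene it was in 15 of the 34 (44.1%), against 8.09% of all genes with promoter windows. Windows of the same gene can overlap, as those of Hormad1 do, so window counts are not independent. The 43 windows were also richer in CpG, with a median of 20 CpG against 7 over all windows. Among windows with an observed-to-expected ratio of at least 0.6, 18 of 29 germline windows (62.1%) held the E-box, against 11.3% of 11765 windows. The E2F motif was in 9 of the 43 windows (20.9%), against 4.6% of all windows, and 8 genes held it. E-boxes lay in promoters of genes that were called and of genes that were not: Ddx4, Tdrd1, Tdrd9, Stk31, Mov10l1, Brdt, Taf7l, Slc25a31, Syce2, Stag3 and Hormad1 held them too. A match to these letters is a description of the sequence, and binding was not measured.

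**Figure D1:**
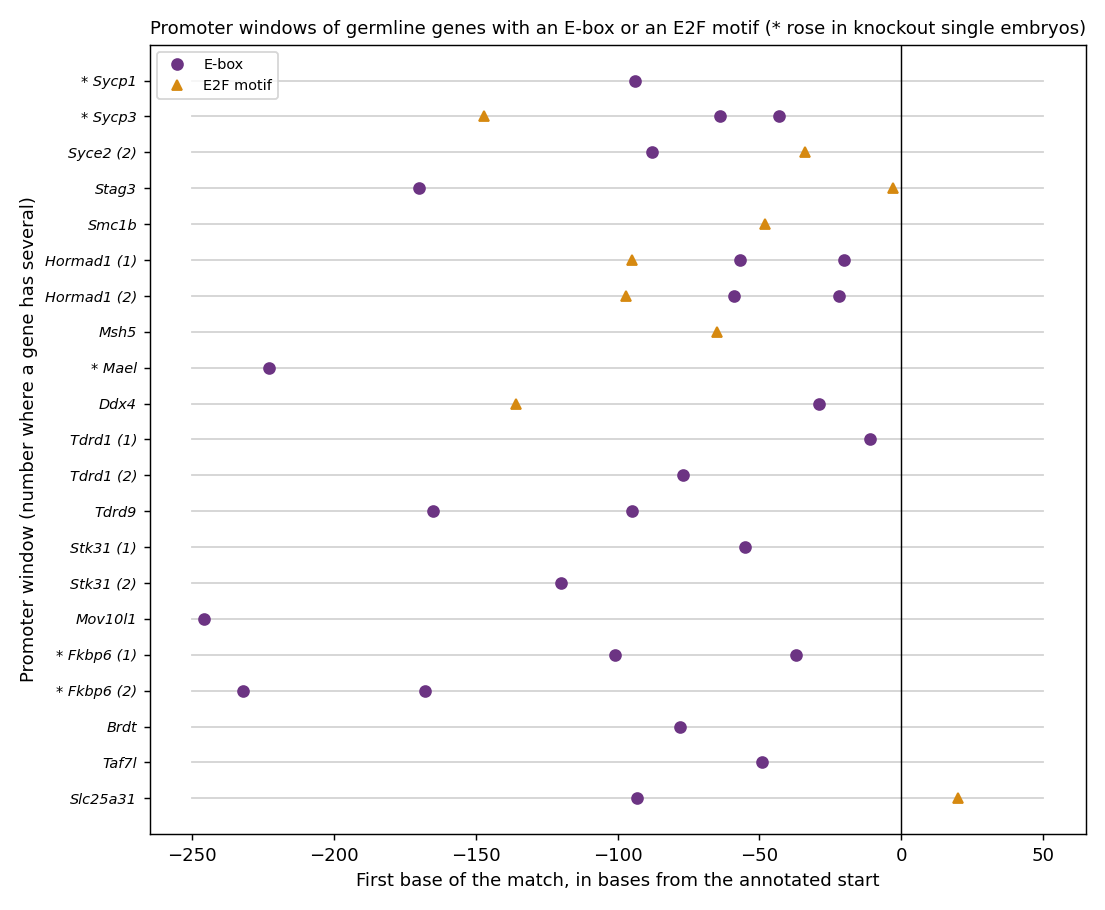
Position of each E-box (circle) and E2F motif (triangle), in bases from the annotated start, in the promoter windows of germline genes that hold either one; an asterisk marks genes that rose in knockout single embryos. Most matches lie in the 250 bases before the start, and the 4 risen genes with an E-box stand among many that were not called.

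Each single-embryo library held 14830332 to 18696312 counts, and each pool 41003216 to 49861963. Jarid2 itself had 156.1, 318.7 and 61.3 CPM (counts scaled to equal library totals) in knockout single embryos, against 580.3, 686.0 and 775.6 CPM in wild-type ones, and 180.6 and 157.9 CPM in knockout pools, against 442.5 and 496.3 CPM in control pools. Knockout single embryo 3 kept the most Jarid2 counts, and no knockout library overlapped its controls. On the first principal component (36.8% of the variance) the wild-type single embryos stood apart, at 41.29 to 79.54, from the knockout single embryos (-42.30 to 11.51) and from the pools of both genotypes (-39.33 to -17.95). All 12 morula markers examined, such as Pou5f1 and Cdx2, were at 1 CPM or more in every library, but 1 of them, the adhesion gene Cdh1, fell in knockout single embryos. It had 124.5, 247.8 and 108.9 CPM in knockouts, against 812.2, 404.8 and 608.2 CPM in wild types (log2 change -1.91, SE 0.32, edgeR adjusted p = 0.018), and its part in the results on germline genes was not tested.

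Most of the germline genes were detected in morulae. With detection set at 1 CPM in every library of a group, 26 of 39 were detected in all 4 groups, 7 in some groups and 6 in none. All 4 genes of meiotic cohesin and the chromosome axis, 5 of 6 of the synaptonemal complex and 10 of 14 of the piRNA pathway and nuage were detected in all groups. Of 6 recombination genes only Dmc1, a strand exchange protein, and of 4 germ cell regulators only Brdt, a bromodomain protein of spermatocytes, passed in all groups. All 5 other germline genes did.

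The 6 genes detected in no group were Spo11, Tex11, Tdrd1, Tdrd6, Tdrd7 and Taf7l. Spo11, the nuclease that makes the breaks that start recombination, had 1 count in all libraries together, in wild-type single embryo 1. A count of 0 allows up to 3 counts, or 0.0602 to 0.202 CPM over the 10 libraries, by counting error alone. Tdrd6 had 2 counts in knockout pool 1 and Taf7l had 2 counts in control pool 2, with 0 elsewhere. Tdrd7, a Tudor protein of the nuage, ranged from 0 to 1.32 CPM over the libraries. Tex11, an X-linked recombination gene, had 39, 43 and 0 counts in knockout single embryos, against 0, 0 and 4 counts in wild-type ones. Tdrd1, a Tudor protein that binds Piwi proteins, had 15, 23 and 3 counts in knockout single embryos and 0 counts in each wild-type one; in the pools it had 12 and 4 counts in knockouts, against 21 and 8 counts in controls. These low counts were not tested in single embryos.

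The 7 genes detected in some groups were Sycp2, Msh4, Msh5, Mei1, Tdrd9, Dazl and Sohlh2. By group, 31 of the 39 were detected in knockout single embryos and 27 in wild-type ones, with 31 in knockout pools and 33 in control pools. Dazl, an RNA-binding protein of germ cells, and Sohlh2, a basic helix-loop-helix regulator of gonocytes and oocytes, were detected in every group but wild-type single embryos.

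Levels between genes are compared as CPM per kilobase of exon. In control pools Fkbp6, a co-chaperone needed for piRNA production, was at 202 ± 6.71, the synaptonemal complex gene Syce2 at 135 ± 18.7, and Tex19.1, which restrains retrotransposons in germ cells and placenta, at 122 ± 2.59 CPM per kilobase (SD, n = 2). The neighbours Syce2 and Tex19.1 differed by less than the spread of Syce2. Sycp3 followed at 59.5 ± 17.1, Xlr3a at 33.6 ± 1.61, Mael at 28.3 ± 2.12 and Sycp1 at 20.5 ± 1.04 CPM per kilobase. Sycp1, Hormad1 (19.4 ± 3.03), Asz1 (19 ± 1.6) and Dmc1 (18.4 ± 2.71) were within their spread of each other. Fkbp6 ranked first of the 39 in each of the 4 groups. Mael ranked sixth by this measure in knockout single embryos, at 56.1 ± 20.8, and below 9 others in wild-type ones, at 15.5 ± 7.21 CPM per kilobase (SD, n = 3).

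**Figure D2:**
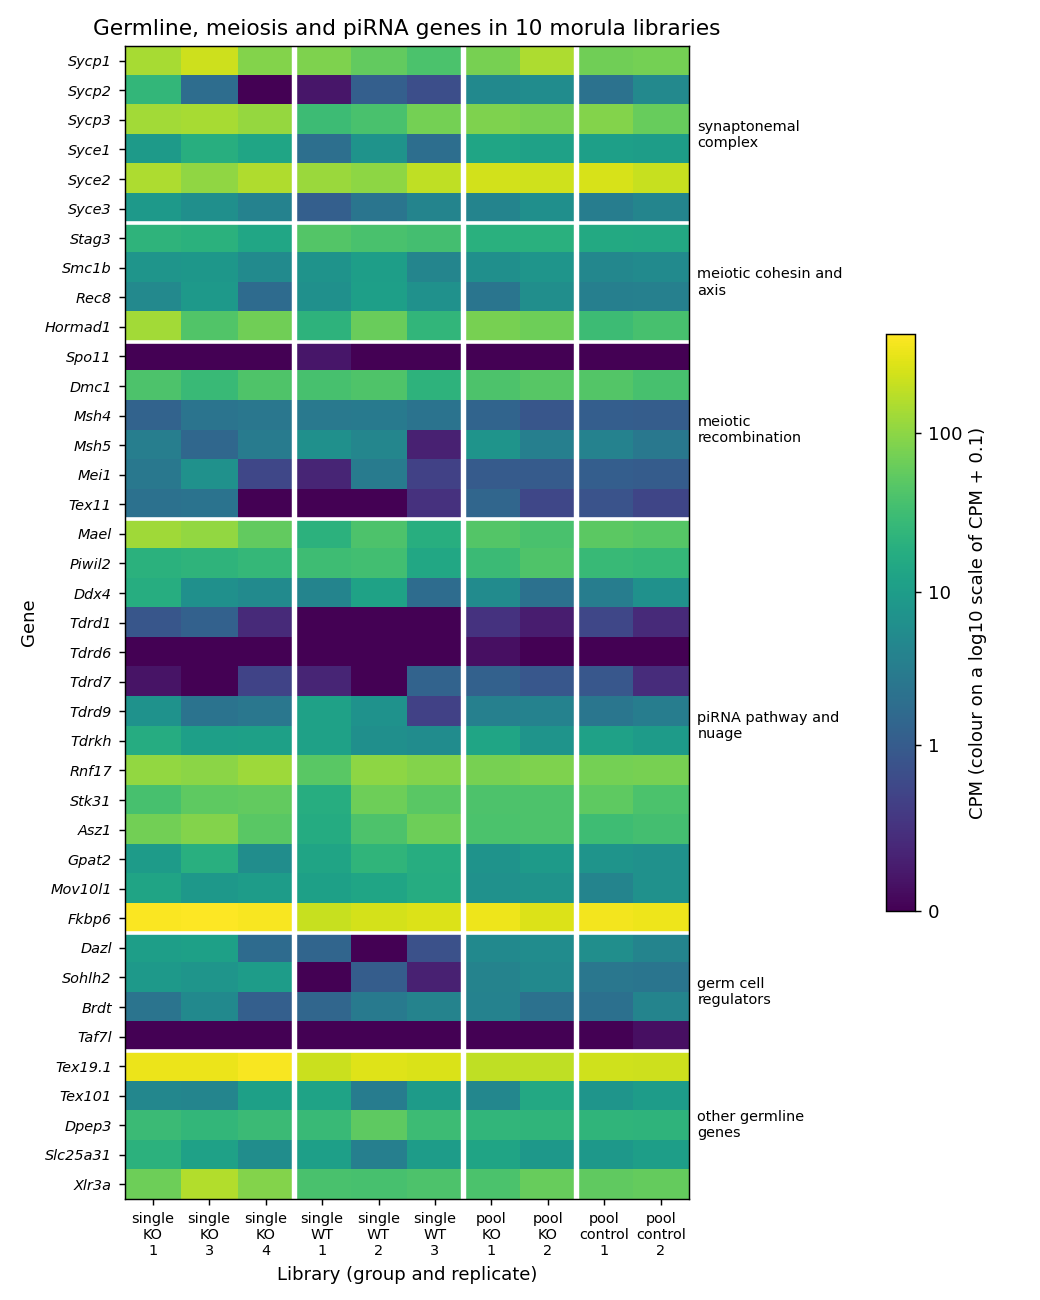
CPM of the 39 genes (rows, grouped by role) in each of the 10 libraries (columns), with colour on a log10 scale of CPM + 0.1. Fkbp6, Tex19.1 and Syce2 are bright throughout, Spo11, Tdrd6 and Taf7l are dark throughout, and Dazl and Sohlh2 are darkest in the wild-type single embryos.

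In single female embryos, knockout was compared with wild type across all genes with edgeR's quasi-likelihood test, and a gene was called where the Benjamini-Hochberg adjusted p was under 5%. Of the 39 germline genes, 33 passed the filter on low counts and 6 rose: the synaptonemal complex genes Sycp1 and Sycp3, the piRNA genes Mael and Fkbp6, the regulator Sohlh2 and the X-linked gene Xlr3a. None fell, while Stag3 had an unadjusted p under 0.05 in the lower direction. Over all 13830 genes tested, 1.16% were called higher and 3.21% lower, against 6 of 33 (18.2%) germline genes called higher. The germline genes were chosen with earlier results of these data known, so these shares describe the list and do not test it. The median log2 change was 0.52 over the 33 genes and -0.03 over all genes tested, and 22 of the 33 were above 0, against 48.3% of all genes. These shares cover only genes that passed the filter, and some passed it only with the help of knockout libraries. Sohlh2, Dazl, Sycp2 and Mei1, all with log2 changes above 0, did not meet it on wild-type libraries alone. Nor did Msh5 and Tdrd9, both below 0. The shares and the median are partly set by the filter for these genes. At an unadjusted p under 0.05, 11 of 33 were higher (10.4% of all genes) and 1 was lower (12.2% of all genes). By limma-voom 5 were higher and 0 lower, against 1.54% and 3.93% of all genes. With DESeq2 9 were higher and 1 lower, against 6.88% and 7.27%. Knockouts lay above wild types without overlap for 9 of 33 genes (12.6% of all genes) and below for 1 of 33 (15.3% of all genes). Lack of overlap between 3 and 3 embryos was thus common over all genes.

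The summed level of the 39 genes was 1989.5, 2024.4 and 1775.9 CPM in knockout single embryos, against 1069.3, 1349.1 and 1318.6 CPM in wild-type ones. The knockout sums all lay above the wild-type sums, and Fkbp6, Tex19.1, Sycp1, Sycp3 and Syce2 gave most of each. In the pools the sums overlapped, at 1469.4 and 1486.6 CPM in knockouts and 1500.6 and 1402.9 CPM in controls, between the sums of the knockout and wild-type single embryos. In bulk RNA such as this, fewer cells of a type and less RNA per cell cannot be told apart.

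The number of calls rested on single libraries. It was 0 without knockout replicate 4, wild-type replicate 1 or wild-type replicate 3, 1 (Xlr3a) without knockout replicate 1, 3 (Syce1, Mael and Sohlh2) without wild-type replicate 2, and 5 without knockout replicate 3. Over all genes the calls moved too: 1 without knockout replicate 4, 41 without wild-type replicate 1, 1 without wild-type replicate 3, 66 without knockout replicate 1, 520 without wild-type replicate 2 and 1316 without knockout replicate 3, against 605 with all libraries. The log2 changes of the 6 genes stayed above 0 in each of these fits.

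**Figure D3:**
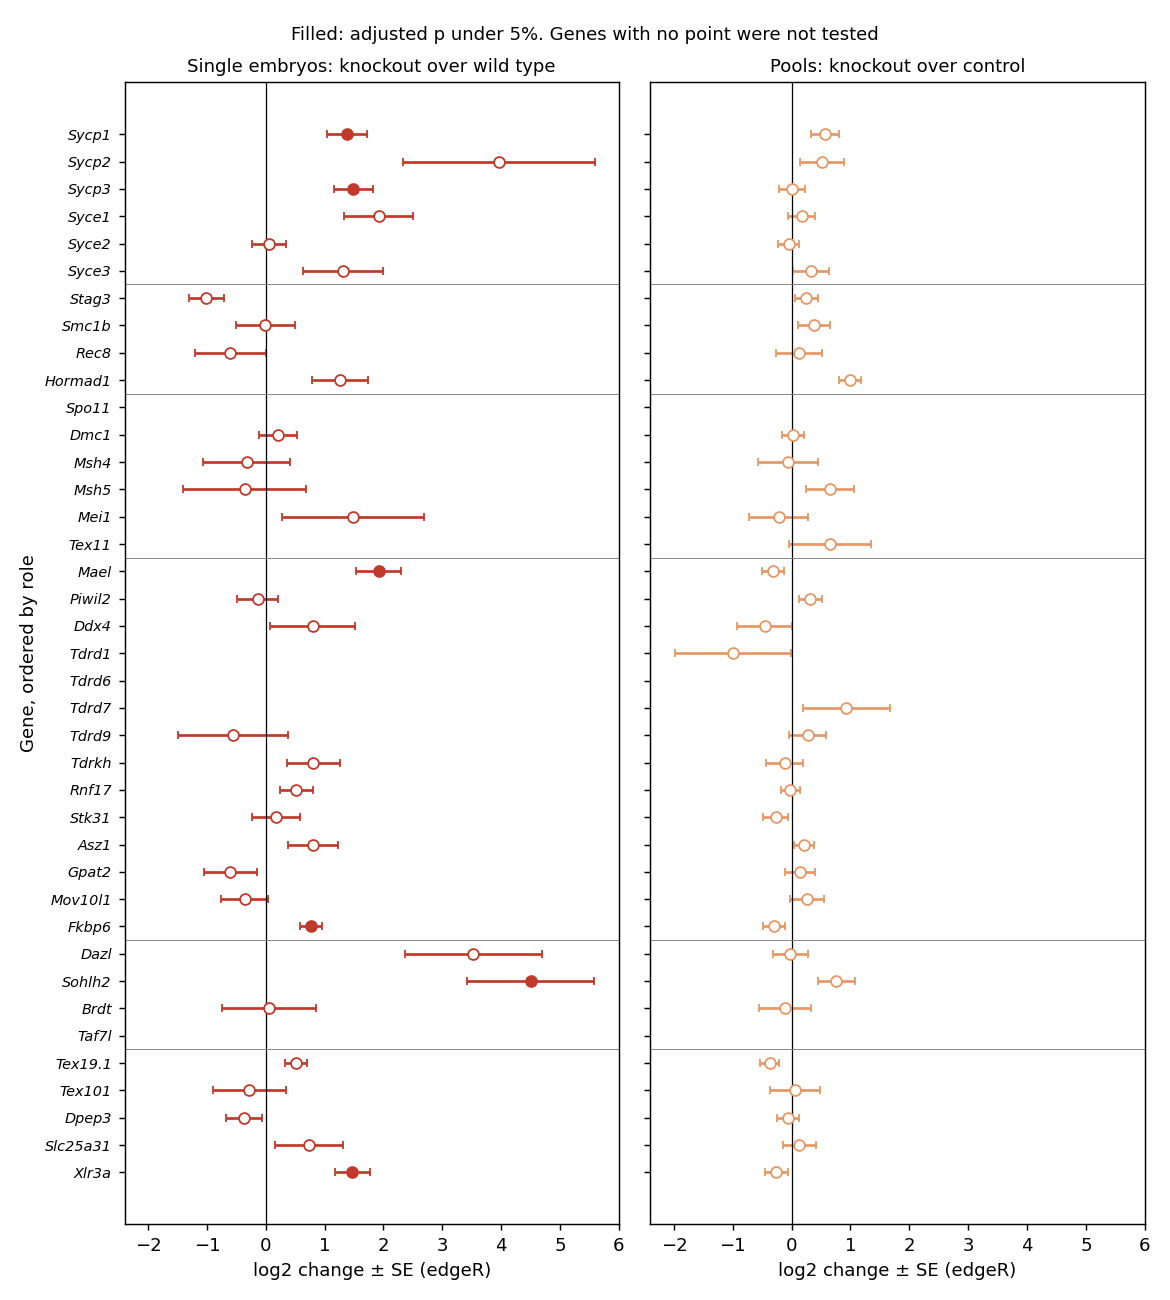
Log2 change with its standard error (edgeR) of each tested germline gene, ordered by role, in single embryos (left, knockout over wild type) and in pools (right, knockout over control). Filled points are below an adjusted p of 5%: 6 in single embryos and 0 in pools.

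Of the synaptonemal complex genes 6 of 6 were tested and 2 rose, with a median log2 change of 1.43. Sycp1, the transverse filament protein, had 138.7, 225.4 and 89.4 CPM in knockout single embryos, against 82.3, 56.1 and 39.4 CPM in wild-type ones. The groups did not overlap, though knockout 4 and wild type 1 were close. The log2 change was 1.38 (SE 0.34, edgeR adjusted p = 0.0454), and the call was lost without any 1 library (adjusted p = 0.0725 to 0.148) and with library totals in place of TMM factors (0.0607). Sycp3, a lateral element protein, had 133.5, 143.0 and 110.7 CPM in knockouts, against 30.3, 38.4 and 72.5 CPM in wild types. All knockouts lay above all wild types, and the log2 change was 1.49 (SE 0.33, edgeR adjusted p = 0.0331). That call held without knockout 3 (0.038) and was lost without any other single library (0.0607 to 0.122). Sycp3 exons overlap 660 bases of Chpt1 on the opposite strand, and no source used here says whether counting used strand, so its level is uncertain. Chpt1, a choline phosphotransferase gene, had a log2 change of -0.11 (SE 0.23).

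Syce1, a central element protein, had 9.33, 18.6 and 13.2 CPM in knockouts, against 2.02, 7.19 and 1.96 CPM in wild types. These groups did not overlap either, at a log2 change of 1.92 (edgeR SE 0.59, adjusted p = 0.084), which passed with DESeq2 (0.00953; range over alternatives 0.00953 to 0.258). Sycp2, the partner of Sycp3, was high in 1 embryo: it had 25.1, 1.87 and 0 CPM in knockouts, against 0.0674, 1.14 and 0.633 CPM in wild types. Its groups overlapped, and its log2 change of 3.97 (SE 1.63) dropped to as low as 0.55 with 1 library left out. Syce3 had 8.77, 6.36 and 3.98 CPM in knockouts, against 1.15, 2.45 and 4.26 CPM in wild types, and Syce2 had 150.5, 105.8 and 153.4 CPM, against 119.9, 101.2 and 188.0 CPM. Both central element genes overlapped between groups, with log2 changes of 1.32 (SE 0.68) and 0.05 (SE 0.29), the second of them near 0.

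Of the 4 genes of meiotic cohesin and the chromosome axis none was called, and their median log2 change was -0.30. Stag3, a meiotic cohesin subunit, was the one germline gene that was lower at an unadjusted p under 0.05. It had 22.3, 20.2 and 13.8 CPM in knockouts, against 45.0, 38.6 and 34.1 CPM in wild types, with no overlap. The log2 change was -1.01 (SE 0.30, edgeR adjusted p = 0.0805; DESeq2 0.023; range over alternatives 0.023 to 0.49). Hormad1, which monitors synapsis on the axis, had 131.2, 43.4 and 68.3 CPM in knockouts, against 22.0, 61.4 and 24.5 CPM in wild types. Knockout 3 and wild type 2 overlapped, and the log2 change was 1.26 (SE 0.48, adjusted p = 0.151). The cohesin subunit genes Smc1b and Rec8 overlapped between groups. Smc1b had 7.72, 8.29 and 5.31 CPM in knockouts, against 7.21, 10.7 and 4.37 CPM in wild types. Rec8 had 4.94, 9.09 and 1.77 CPM in knockouts, against 6.54, 10.9 and 6.79 CPM in wild types. The log2 changes were -0.01 (SE 0.50) for Smc1b, which was just above 0 under other scalings, and -0.60 (SE 0.60) for Rec8.

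None of the 4 tested recombination genes was called, and their median log2 change was -0.06. Dmc1 had 41.1, 28.7 and 41.7 CPM in knockouts, against 37.4, 41.6 and 22.1 CPM in wild types, a log2 change of 0.21 (SE 0.32). Its groups overlapped throughout. The MutS homologs Msh4 and Msh5, which stabilise crossover intermediates, ranged from 0.115 to 6.47 CPM over the single embryos, and Mei1, needed to form meiotic breaks, from 0.135 to 6.79 CPM. Their log2 changes were -0.32 (SE 0.74) for Msh4, -0.36 (SE 1.04) for Msh5 and 1.48 (SE 1.21) for Mei1, all with overlap.

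Of 14 piRNA pathway and nuage genes 11 were tested and 2 rose, with 7 above 0 and a median log2 change of 0.52. Mael, needed for transposon silencing in spermatocytes, had 126.2, 108.5 and 56.9 CPM in knockout single embryos, against 21.0, 41.2 and 18.3 CPM in wild-type ones. All knockouts were above all wild types, knockout 4 by the smallest margin. The log2 change was 1.92 (SE 0.38, edgeR adjusted p = 0.025). The call held without knockout 3 (0.0279) or wild type 2 (0.019) and was lost without any other single library (0.062 to 0.11). Fkbp6 had 406.3, 420.2 and 388.7 CPM in knockouts, against 210.6, 248.8 and 274.5 CPM in wild types. The knockout values lay close together, with an SD of 15.8 CPM around a mean of 405.1 CPM, well above the wild types at 244.7 ± 32.1 CPM (SD, n = 3 each). The log2 change was 0.77 (SE 0.18, edgeR adjusted p = 0.0391), the smallest of the 6, and the call was lost without any single library (0.0822 to 0.164) other than knockout 3 (0.0329).

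The other 9 tested piRNA genes overlapped between the groups. Rnf17, a Tudor protein of germ cells, had 107.9, 98.3 and 124.7 CPM in knockouts, against 49.6, 100.4 and 88.5 CPM in wild types. Asz1, of the mitochondrial surface where piRNAs are made, had 72.2, 90.0 and 49.7 CPM in knockouts, against 17.0, 40.9 and 66.0 CPM in wild types. Stk31 had 36.9, 52.8 and 57.4 CPM in knockouts, against 17.9, 65.6 and 50.2 CPM in wild types. In each of these 3 genes wild type 1 was the lowest of the 6 embryos, and the log2 changes were 0.52 (SE 0.28), 0.80 (SE 0.43) and 0.18 (SE 0.41). Piwil2, a Piwi protein that binds piRNAs, had 20.6, 22.7 and 25.7 CPM in knockouts, against 31.4, 33.1 and 14.6 CPM in wild types. Its log2 change was -0.14 (SE 0.35).

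Ddx4, the Vasa helicase of nuage, had 17.8, 6.47 and 5.26 CPM in knockouts, against 4.25, 12.1 and 1.84 CPM in wild types. Tdrkh, the Tudor partner of Piwi proteins in trimming, had 17.2, 11.1 and 11.5 CPM in knockouts, against 11.9, 6.22 and 5.64 CPM in wild types. The log2 changes were 0.80 (SE 0.72) for Ddx4 and 0.81 (SE 0.45) for Tdrkh, neither of them past the threshold. Tdrkh exons overlap 2255 bases of Oaz3 on the opposite strand, and Oaz3 had at most 13 counts in a library. Gpat2, an acyltransferase of piRNA-producing mitochondria, had 9.77, 19.5 and 5.92 CPM in knockouts, against 12.9, 23.4 and 17.8 CPM in wild types. Mov10l1, the helicase that hands precursors to Piwi proteins, had 13.0, 8.56 and 9.85 CPM in knockouts, against 11.3, 13.5 and 17.2 CPM in wild types. These were below 0, at -0.60 (SE 0.45) and -0.36 (SE 0.40). Tdrd9, a Tudor helicase, had 6.99, 2.3 and 2.66 CPM in knockouts and 11.6, 6.84 and 0.403 CPM in wild types.

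Of 4 germ cell regulators 3 were tested and 1 rose. Sohlh2 had 9.16, 7.54 and 9.96 CPM (165, 141 and 180 counts) in knockout single embryos, against 0, 1.08 and 0.115 CPM (0, 19 and 2 counts) in wild-type ones. The knockouts were close to each other and far above the wild types, 2 of which were at or under the floor of 3 counts. The log2 change was 4.50 (SE 1.08, edgeR adjusted p = 0.0421), and its size is loosely set by so few wild-type counts: it ran from 3.94 to 7.06 with 1 library left out. The call held without knockout 3 (0.0447) or wild type 2 (0.0166), was lost without any other single library (0.0947 to 0.145), and missed with limma-voom (0.0552). Dazl had 10.7, 11.3 and 1.77 CPM in knockouts, against 1.42, 0 and 0.69 CPM in wild types. Its groups did not overlap but knockout 4 and wild type 1 were close, at a log2 change of 3.53 (edgeR SE 1.16, adjusted p = 0.104; DESeq2 0.00487; range over alternatives 0.0021 to 0.288). Brdt had 2.39, 5.19 and 1.16 CPM in knockouts, against 1.48, 2.91 and 4.08 CPM in wild types, with no order between the groups.

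Of the 5 other germline genes 1 rose. Xlr3a, of an X-linked lymphocyte-regulated family with members in germ cells and brain, had 67.1, 162.7 and 88.5 CPM in knockouts, against 38.3, 36.6 and 41.2 CPM in wild types. Knockout 3 was the highest, and all knockouts lay above the narrow wild-type range. The log2 change was 1.47 (SE 0.30, edgeR adjusted p = 0.0261), and the call held without knockout 1 (0.0444) or 3 (0.0285) and was lost without any other single library (0.0536 to 0.106). Xlr3a shares near-identical exons with Xlr3b (98.8% over 1565 bases) and Xlr3c (98.5% over 1582 bases), so its reads may be split between them and its value is uncertain. Xlr3b had 1.17, 3.48 and 4.81 CPM in knockouts, against 0.27, 0.97 and 0.23 CPM in wild types, or 2.71 on the log2 scale (SE 1.03, edgeR adjusted p = 0.149). Xlr3c had 2.44, 2.14 and 3.54 CPM in knockouts, against 0.135, 1.08 and 0.288 CPM in wild types, and its log2 change was 2.48 (SE 1.05, edgeR adjusted p = 0.192). Neither copy was called, and neither overlapped between the groups.

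Tex19.1 had 326.4, 331.0 and 381.4 CPM in knockouts, against 212.7, 276.6 and 264.5 CPM in wild types. The groups did not overlap, and the log2 change was 0.51 (SE 0.19, edgeR adjusted p = 0.138). Dpep3, a testis dipeptidase, had 29.0, 25.0 and 29.2 CPM in knockouts, against 28.6, 52.7 and 30.5 CPM in wild types. The germ cell surface gene Tex101 had 4.66, 4.33 and 11.3 CPM in knockouts, against 12.7, 3.25 and 9.6 CPM in wild types. Both overlapped, with wild type 2 the highest for Dpep3. Slc25a31, the germ cell ADP/ATP carrier, had 21.5, 11.8 and 5.81 CPM in knockouts, against 11.1, 3.59 and 9.83 CPM in wild types, again with overlap.

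**Figure D4:**
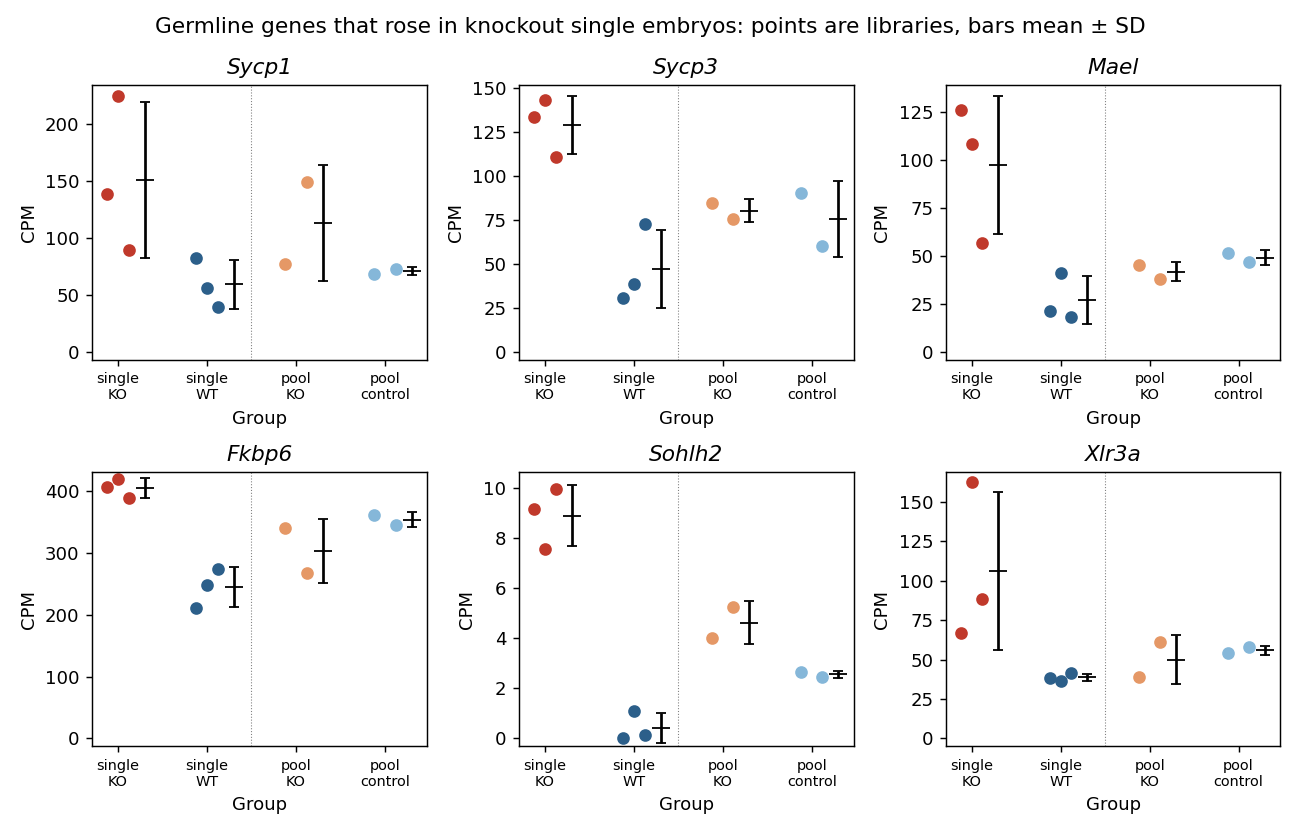
CPM of the 6 genes that rose in knockout single embryos, in each library (points) with the mean and SD of each group (bars). Knockout single embryos lie above wild-type ones in each panel, while knockout pools lie below control pools for Mael and Fkbp6, above them for Sycp1 and Sohlh2, and overlap them for Sycp3 and Xlr3a.

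Spread between single-embryo libraries was part of the picture. Each embryo gave 1 library, so differences between embryos and technical spread cannot be told apart. The median coefficient of variation of the germline genes (36 per group) was 37.3% in knockout and 46.6% in wild-type single embryos, against 36.6% and 34.0% over all genes, and 16.4% in knockout and 13.7% in control pools, against 17.1% and 14.0%. Some genes were at 0 counts in 1 embryo and at 10 counts or more in another of the same genotype, namely Sycp2 and Tex11 among knockouts and Tdrd7, Dazl and Sohlh2 among wild types. No gene did so in the pools.

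In the pools, none of the 36 germline genes tested was called, and edgeR called 0% of all 16259 genes in either direction. Jarid2 itself was called lower in single embryos (log2 change -1.92, SE 0.43, edgeR adjusted p = 0.0342). It was not called in the pools (log2 change -1.55, SE 0.18, edgeR adjusted p = 0.0794), so the absence of calls there says little. At an unadjusted p under 0.05 there were 3 higher (Hormad1, Sycp1 and Sohlh2) and 1 lower (Tex19.1) of 36, against 4.26% higher and 2.34% lower of all genes (6.6% in either direction, 1073 genes). DESeq2 called 1 germline gene, Hormad1, higher, with 0.394% of all genes higher and 0.0431% lower (71 genes), and limma-voom called no germline gene and 0.00615% of all genes (1 gene, lower). The median log2 change was 0.09 over the 36 genes and 0.01 over all genes tested, and 21 of 36 were above 0, against 51.3% of all genes. Without knockout pool 1 the median was -0.02 and the calls were Sycp1, Hormad1 and Ddx4, among 379 of all 17188 genes tested there. Knockout pools were above control pools without overlap for 11 of 36 genes (24.3% of all genes) and below for 4 of 36 (11.1% of all genes).

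Hormad1 had the smallest p of the 36 genes in the pools, with 74.7 and 66.2 CPM in knockouts, against 29.9 and 37.3 CPM in controls. Both knockout pools were above both controls by more than the spread of either group, at a log2 change of 0.99 (edgeR SE 0.19, adjusted p = 0.336). It passed with DESeq2 (adjusted p = 0.0058), and its adjusted p ran from 0.000748 to 1 over the alternatives; it was called without knockout pool 1 (0.0367) or 2 (0.00444) and not without either control pool. Hormad1 shares 994 aligned bases at 97.9% identity with the pseudogene Gm15529, so its reads may be split.

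Among synaptonemal complex genes Sycp1 had 76.9 and 149.4 CPM in knockout pools, against 68.1 and 73.1 CPM in control pools, where knockout pool 2 alone stood well apart. Its log2 change was 0.57 (SE 0.24, edgeR adjusted p = 0.733), and ran from 0.1 to 0.93 with 1 pool left out, with a call without knockout pool 1. Sycp3 had 84.8 and 75.6 CPM in knockout pools, against 90.5 and 59.9 CPM in control pools. That is overlap, at a log2 change of 0.00 (SE 0.22) whose sign turned with the scaling. Syce2 had 240.0 and 230.9 CPM in knockout pools, against 251.7 and 206.7 CPM in control pools. Syce1 had 13.5 and 11.8 CPM in knockout pools, against 11.0 and 10.3 CPM in control pools. The differences were small in both, at -0.05 (SE 0.18) for Syce2 and 0.17 (SE 0.23) for Syce1. Syce3 had 4.15 and 6.34 CPM in knockout pools, against 3.36 and 4.42 CPM in control pools, and Sycp2 had 5.15 and 5.73 CPM, against 2.24 and 4.93 CPM.

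All 4 cohesin and axis genes had log2 changes above 0 in the pools with edgeR, under each scaling tried, though none was called. Rec8 was within its error of 0, at 0.12 (SE 0.39), and was at -0.02 with limma-voom. Stag3 had 19.9 and 19.7 CPM in knockout pools, against 15.7 and 15.5 CPM in control pools. That order, above controls without overlap, was the reverse of the single embryos, at a log2 change of 0.25 (edgeR SE 0.20, adjusted p = 0.869). Smc1b had 6.22 and 7.78 CPM in knockout pools, against 4.68 and 5.37 CPM in control pools. Rec8 had 2.49 and 6.12 CPM in knockout pools, against 3.59 and 3.73 CPM in control pools. Smc1b did not overlap and Rec8 did. Among recombination genes Dmc1 had 41.3 and 47.3 CPM in knockout pools, against 45.1 and 36.6 CPM in control pools, with overlap. Msh5 had 7.3 and 3.59 CPM in knockout pools, against 3.94 and 2.7 CPM in control pools, and Msh4, Mei1 and Tex11 were at 0.464 to 1.48 CPM in each pool.

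Of 14 piRNA pathway and nuage genes 13 were tested in the pools and none was called. Mael had 45.1 and 38.1 CPM in knockout pools, against 51.7 and 46.5 CPM in control pools, or -0.32 on the log2 scale (SE 0.19, edgeR adjusted p = 0.834). Fkbp6 had 339.6 and 266.8 CPM in knockout pools, against 362.1 and 345.4 CPM in control pools, or -0.30 on the log2 scale (SE 0.19, edgeR adjusted p = 0.845). In both genes the knockout pools lay just below the control pools. Rnf17 had 76.4 and 82.6 CPM in knockout pools, against 74.6 and 76.7 CPM in control pools. Piwil2 had 29.7 and 41.7 CPM in knockout pools, against 27.5 and 25.9 CPM in control pools. Asz1 had 39.6 and 41.4 CPM in knockout pools, against 31.0 and 34.9 CPM in control pools. Piwil2 and Asz1 were above controls without overlap, by log2 changes of 0.32 (SE 0.20) and 0.21 (SE 0.17). Stk31 had 41.4 and 40.7 CPM in knockout pools, against 53.8 and 39.3 CPM in control pools. Tdrkh had 13.4 and 7.39 CPM in knockout pools, against 11.8 and 9.73 CPM in control pools. Ddx4 was variable within both genotypes, at 5.44 and 2.12 CPM in knockout pools, against 3.33 and 6.72 CPM in control pools, and was among the calls without knockout pool 1.

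Gpat2 had 7.06 and 9.44 CPM in knockout pools, against 7.32 and 6.64 CPM in control pools. Mov10l1 had 6.74 and 7.19 CPM in knockout pools, against 4.17 and 6.78 CPM in control pools. Both overlapped, and their log2 changes were 0.14 (SE 0.26) and 0.26 (SE 0.29). Tdrd9 ranged from 2.56 to 3.95 CPM over the 4 pools.

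Of the regulators Sohlh2 had 4.01 and 5.22 CPM in knockout pools, against 2.66 and 2.44 CPM in control pools. Knockouts were above controls without overlap, as in the single embryos, at a log2 change of 0.76 (edgeR SE 0.32, adjusted p = 0.722; range over alternatives 0.266 to 1). Dazl had 5.09 and 5.71 CPM in knockout pools, against 6.01 and 4.24 CPM in control pools. Brdt had 3.89 and 2.17 CPM in knockout pools, against 2.07 and 4.21 CPM in control pools. Both of these overlapped. Tex19.1 had 186.0 and 190.0 CPM in knockout pools, against 232.5 and 225.7 CPM in control pools, below them without overlap. Its log2 change was -0.37 (SE 0.16, edgeR adjusted p = 0.743; range over alternatives 0.115 to 1). Xlr3a had 39.0 and 61.0 CPM in knockout pools, against 53.9 and 57.7 CPM in control pools, at -0.26 (SE 0.20). Dpep3 had 23.9 and 23.3 CPM in knockout pools, against 23.6 and 22.6 CPM in control pools. Tex101 had 4.61 and 15.5 CPM in knockout pools, against 7.67 and 10.1 CPM in control pools, and Slc25a31 had 13.1 and 8.54 CPM, against 8.32 and 10.5 CPM. Knockout pools lay on both sides of the controls for Xlr3a and Tex101, and overlapped them for Slc25a31.

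The difference between the knockout effects, single embryos minus pools, was tested over all 10 libraries. Of 36 germline genes 0 passed, and 0.0063% of all 15878 genes did (1 gene, lower). At an unadjusted p under 0.05, 9 of 36 were higher (8.1% of all genes) and 1 was lower (6.55% of all genes). The 9 were Sycp3, Syce1, Mael, Tdrd1, Fkbp6, Dazl, Sohlh2, Tex19.1 and Xlr3a, and the lower one was Stag3. Tdrd1 passed the filter on low counts only through knockout single embryos 1 and 3 (0.833 and 1.23 CPM). It had 0 counts in each wild-type one, so its place among the 9 is no support. Of the 36 differences 24 were above 0, against 47.9% of all genes. Mael had the smallest p among the 36, with a difference of 2.26 on the log2 scale (SE 0.52, edgeR adjusted p = 0.235). Fkbp6 differed by 1.09 (SE 0.28), Xlr3a by 1.75 (SE 0.43), Tex19.1 by 0.91 (SE 0.26), Sycp3 by 1.49 (SE 0.49) and Stag3 by -1.25 (SE 0.40), with edgeR adjusted p from 0.235 to 0.24. DESeq2 called 5 of the 36 (Sycp3, Mael, Fkbp6, Tex19.1 and Xlr3a), against 2.01% of all genes in that direction. It gave no adjusted p to many of the others, among them Stag3, Syce1, Dazl, Sohlh2 and Tdrd1, so these could not be called. An effect called in single embryos and not in pools is therefore not shown by edgeR to differ between them.

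Seen library by library, Mael, Fkbp6 and Tex19.1 were above wild type in all knockout single embryos and below control in both knockout pools (3 of 33, against 1.76% of all genes), and Stag3 was the reverse (1 of 33, against 2.52%). Sycp1, Syce1 and Sohlh2 were higher in knockouts in both sets without overlap (3 of 33, against 2.41%). For Sohlh2 all 4 pools lay between the knockout and the wild-type single embryos (1 of 33, against 0.49%). Control pools lay above the wild-type single embryos for 8 of 33 genes (17.3% of all genes): Sycp2, Syce1, Syce2, Mael, Fkbp6, Dazl, Sohlh2 and Xlr3a. They lay below them for 6 of 33 (32.3% of all genes): Stag3, Rec8, Msh4, Gpat2, Mov10l1 and Dpep3. Knockout single embryos lay above knockout pools for 10 of 33 (16.2% of all genes), among them Mael, Fkbp6, Sohlh2, Xlr3a, Sycp3 and Tex19.1. The sets differ in embryos per library, and the sex of the pools is not given; the part of either in these orders was not tested.

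**Figure D5:**
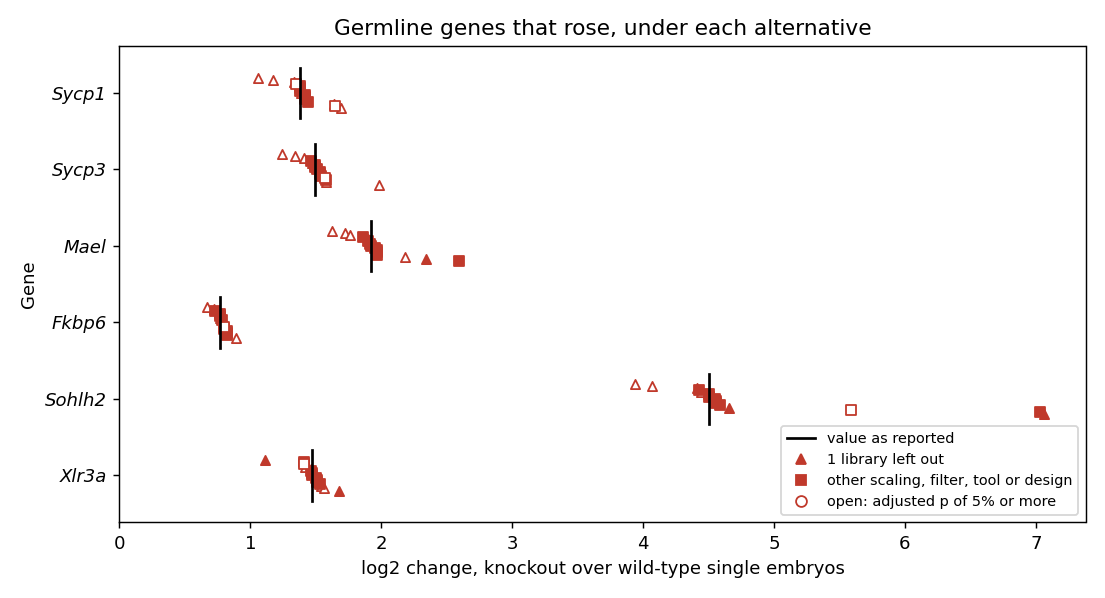
Log2 change of the 6 risen genes in single embryos as reported (black line) and under each alternative (squares for another scaling, filter, tool or design; triangles for 1 library left out), with open symbols where the adjusted p was 5% or more. The values stay above 0 for all 6, Sohlh2 spreads furthest, and most triangles are open.

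Genes that work beside the 39 were read from lists of the same kind. Of 12 other piRNA genes tested in single embryos 1 rose: Tdrd12, a Tudor helicase, had 47.8, 48.1 and 25.7 CPM in knockouts, against 6.54, 11.1 and 17.3 CPM in wild types (log2 change 1.83, SE 0.42, edgeR adjusted p = 0.0359). All its knockouts were above all its wild types. Of 34 other genes of meiotic chromosomes and recombination none rose and 1 fell, with a median of 0.59: Sun1, which tethers telomeres to the nuclear envelope and is also broadly expressed, had 138.9, 190.8 and 94.7 CPM in knockouts, against 402.8, 302.1 and 320.6 CPM in wild types (log2 change -1.24, SE 0.24, edgeR adjusted p = 0.0236). Of 32 other germ cell genes 3 rose and none fell, with a median of 0.55; over all genes 1.16% were called higher and 3.21% lower. Tuba3a, a testis tubulin, had 39.9, 28.8 and 25.1 CPM in knockouts, against 4.32, 7.24 and 8.68 CPM in wild types (log2 change 2.26, SE 0.40). Tex13 had 1.39, 6.9 and 2.88 CPM in knockouts and 0 in each wild type, so it passed the filter on low counts through its knockout libraries. Slc25a5, a broadly expressed ADP/ATP carrier, had 1276.9, 984.0 and 1240.4 CPM in knockouts, against 593.2, 739.4 and 658.9 CPM in wild types. For these genes the edgeR adjusted p ran from 0.0188 to 0.0315.

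A list of 32 genes held PRC1.6 and other repressors of germline genes, and also Tet1, Tet2 and Tet3, which act against DNA methylation. None of the 32 was called in single embryos, with a median log2 change of -0.14 that mixes these opposed roles. The Tet genes were at -0.77, -0.68 and -1.51 (edgeR adjusted p = 0.104, 0.078 and 0.191). Of 14 genes of general cohesin none was called, with a median of -0.00. No gene of these 5 lists was called in the pools, where the medians were 0.39, 0.11, 0.13, 0.01 and 0.00 in the same order.

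Markers of other cells that could carry germline RNA, and of earlier stages, were read in the same libraries. The summed level of 20 oocyte markers was 124.7 to 203.4 CPM in knockout single embryos, 143.2 to 241.3 CPM in wild-type ones, and 185.9 to 195.0 CPM in knockout and 174.4 to 184.4 CPM in control pools, so the ranges overlapped in single embryos. Zp1, a zona protein, was at 0 in every single embryo and Nobox, an oocyte regulator, in every library but control pool 2. Zp3 and Ooep gave most of each sum. Of the 10 oocyte markers tested in single embryos 1 rose, Uchl1, a ubiquitin hydrolase, with 24.1, 47 and 14.5 CPM in knockouts, against 7.62, 7.87 and 2.7 CPM in wild types (log2 change 2.26, SE 0.52, edgeR adjusted p = 0.0359). Its level was above that of Padi6 in each knockout single embryo. The median log2 change of these 10 was 0.79, with 6 above 0, though Zp3 was at -0.72. Figla and Tcl1, both above 0, were under 1 CPM in each wild-type single embryo. In the pools the median was 0.38 over 17 oocyte markers tested. The 12 cumulus and granulosa markers summed to 34.9 to 44.8 CPM in knockout single embryos, 41.7 to 55 CPM in wild-type ones, 24.3 to 24.6 CPM in knockout pools and 25.9 to 28.2 CPM in control pools. Amhr2, a hormone receptor gene, gave most of each sum, and 5 of the 12 were at 0 in every library (Fshr, Inha, Inhba, Has2 and Ptx3). The 10 sperm and spermatid markers summed to 2.27 to 7.6 CPM in knockout and 1.08 to 3.94 CPM in wild-type single embryos, with Akap4 at 0 throughout. The 10 markers of spermatogonia and spermatocytes summed to 68.8 to 78.4 CPM in knockout and 49.4 to 57.9 CPM in wild-type single embryos, without overlap, and to 60.7 to 63.9 CPM in knockout and 66.6 to 67.5 CPM in control pools, with Pgk2 at 0 throughout and Tbpl1, a TBP-like factor, giving most of each sum. Of these 10 markers 4 were tested in single embryos and 8 in pools. None was called, though edgeR called no gene at all in the pools. The 7 markers of the 2-cell stage summed to 0.498 to 23.5 CPM in knockout and 0.607 to 1.03 CPM in wild-type single embryos, the highest being knockout 3. They summed to 9.31 to 16.9 CPM in knockout and 4.71 to 9.59 CPM in control pools. All pools thus lay above every single embryo other than knockout 3. What part the marker levels have in the germline results was not tested.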

How the data were processed

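Polyadenylated RNA was made into complementary DNA with SMART-Seq v4 and Nextera XT chemistry and read as single ends of 75 bases, per the labels' protocols. The deposited table gives whole-number counts per gene and library, which the authors did not normalise, per its header and values. The submitters' processing notes name mm10, RSEM 1.3.1, STAR 2.7.6a and fastp 0.21.0. The tool behind the counts, the annotation, and the treatment of strand and multi-mapped reads are not given in the sources here.

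Counts were tested with edgeR 4.0.16 in R 4.3.3: genes kept by filterByExpr, TMM scaling (factors 0.902 to 1.11), quasi-likelihood F test, Benjamini-Hochberg adjustment over all genes tested, two-sided, at 5%. Single embryos (3 against 3) and pools (2 against 2) were fitted separately, and the difference of knockout effects over all 10 libraries. CPM were computed from library totals. Standard errors were derived from the F value, and fitted changes carry a prior count of 0.125. Exon lengths, overlaps and near-identical copies (95% identity over at least 75 bases) came from GENCODE M21 on GRCm38, which mm10 stands for, with blastn 2.17.0, and promoters from RefSeq GRCm38.p6. On simulated counts, 100 genes were changed 2-fold and 100 changed 4-fold. Of these, 18% and 65% were recovered in the single-embryo design (13137 genes, 2 false of 85 calls). Recovery was 31% and 83% in the pooled design (15769 genes, 4 of 118) and 0% and 27% for the difference (15336 genes, 1 of 28). The simulated spread came from edgeR's estimated dispersions, and the real pools gave 0 calls among 16259 genes, so this recovery may not hold for the data.

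The members, the 11 other gene lists (231 entries, 224 matched), the tests and the alternatives were chosen with earlier results of these data known. Every member is accounted for, and values in every library are given for genes called or with an unadjusted p under 0.05 in either set and for genes detected in all 4 groups; of the other lists, called genes are named. Alternatives were other scalings and filters, DESeq2 1.42.0, limma-voom (limma 3.58.1), a single fit over the 10 libraries, a replicate block, leaving out each library, and, added after seeing the data, the count of genes whose groups do not overlap. Reads carried no molecular identifiers, so floors cover counting error only. Replicates all differed beyond sampling noise (chi-square 45.6 to 80.1 per gene).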

Additional observations from a re-analysis of the deposited data

How the results depend on the processing

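Of single-embryo germline genes, 6 were called as reported, 10 with no filter on low counts, 10 with DESeq2 (9 higher, and Stag3 lower) and 0 to 5 with 1 library left out. Over all genes, 605 were called (161 higher and 444 lower), 1715 with no filter, 1957 with DESeq2 (951 and 1006), 1667 with all 10 libraries in one fit (791 and 876), 1 to 1316 with 1 library left out, and 301 higher and 423 lower with upper-quartile scaling. The median log2 change of 0.52 ran from 0.31 to 0.79 with 1 library left out. In the pools 0 germline genes were called, 1 with no filter or DESeq2 and 0 to 3 with 1 library left out; over all genes 0 were called, 170 with no filter, 71 with DESeq2, 1 with limma-voom and 25 to 379 with 1 left out. Those last fits hold 1 genotype with a single pool, assumed to vary like the other. The pooled median of 0.09 was 0.06 with RLE factors or DESeq2, 0.13 with upper-quartile scaling, 0.19 with library totals, 0.04 with limma-voom, and -0.02 (without knockout pool 1) to 0.12 with 1 pool left out. For the difference of knockout effects 0 germline genes passed, 7 with no filter, 5 with DESeq2 and 0 with any 1 library left out. Detection in all 4 groups held for 26 genes at 1 CPM and 17 at 5 CPM. The cause of these changes was not tested. With the replicate number as a block, 2 germline genes (Mael and Sohlh2) and 187 of all genes were called in single embryos, with a median of 0.77, and 1 (Hormad1) and 39 in pools, with a median of 0.03. The labels do not say that the numbers pair samples: deviations of same-numbered libraries correlated at -0.00055 and -0.061 in single embryos and 0.114 in pools. No change in sign occurred under any alternative for the 6 risen genes. Depth limits the low genes: 0 counts allow up to 0.202 CPM in the shallowest library.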
